A study of Mus musculus with 6 samples.

Results

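The kallikrein 1 family is a cluster of closely related secreted serine proteases on mouse chromosome 7. Probes were found by exact gene name on the arrays of 3 ND-fed and 3 HFD-fed mouse hearts, which gave 11 probes for 10 genes (Egfbp2, Klk1, Klk1b5, Klk1b9, Klk1b11, Klk1b16, Klk1b22, Klk1b24, Klk1b26 and Klk1b27) out of 36163 gene names. The genes were chosen by their measured difference between the diets in these same hearts, so every comparison of a family gene between HFD and ND is given as a description, with no test. All mice were male C57BL/6. From 4 weeks of age they received either a standard chow (normal diet, ND) or a diet with 60% of its kcal from fat (high fat diet, HFD) for 4 months. Each array carried the Cy3-labelled RNA of 1 heart, and the study's methods describe its adult mice as littermates. The labels name the samples as heart tissue, and which part of each heart was taken is not stated. In RNA from a tissue, fewer cells of a type and less RNA per cell cannot be told apart.

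A single slide held the 6 arrays: row 1 carried HFD 1 and HFD 2, and row 2 carried HFD 3 with all ND hearts. From 49.2% to 52.9% of the 55681 probes on an array were bright enough to be rated well above background, no spot was saturated, and hearts of one diet correlated at 0.990 to 0.995 across probes. The extraction software rated the spike-in slope of HFD 2 as outside its range. All 8 cardiac muscle markers, from the myosin gene Myh6 to the transcription factor Nkx2-5, were well above background on all 6 arrays. Their mean level lay between 7.99 and 8.02 in ND hearts and between 7.84 and 8.07 in HFD hearts. Here and below, a level is the log2 of a probe's intensity relative to the 75th percentile of its array. Levels of different probes are not set against each other.

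Klk1, the tissue kallikrein proper, is known for cutting kininogens and so releasing kinins, peptides that widen blood vessels through the bradykinin receptors. In rodents the gene has been duplicated many times side by side, and the copies, named Klk1b with a number, are best known from the submandibular salivary gland, where male mice make large amounts of them. Several copies were first described as partners of growth factors: Egfbp2, Klk1b9 and Klk1b22 as binding proteins of epidermal growth factor. Names linked to renin are Klk1b26, a prorenin-converting enzyme, and Klk1b16, also called gamma-renin. Egfbp2 and Klk1b26 are not separate copies here, since RefSeq gives the first as a synonym of the second.

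The probes of the family lay within 248645 bases of chromosome 7 (mm9, the build of the files), from chr7:51235681 at the Klk1b9 probe to chr7:51484325 at the Klk1 probe. Along the chromosome the probes followed the order Klk1b9, Klk1b11, Klk1b26 with Egfbp2, Klk1b27, Klk1b22, Klk1b16, Klk1b24, Klk1b5 and Klk1. The 60 bases of the Klk1 probe spanned 156 bases of genome, so this probe crosses an intron, and each of the other 10 probes covered 60 contiguous bases. Egfbp2 and Klk1b26 occupied the same place. RefSeq (GRCm38.p6) has entries for 9 of the 10 names and lists Egfbp2 only as a synonym of Klk1b26. The files give the transcripts of both names for the Egfbp2 probe and for both Klk1b26 probes.

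The sequences are shown because near-identical copies may bind to one another's probes. Of the 5 probes that hold the polyadenylation signal AATAAA, and so lie at the 3′ end of their transcripts, the same 30 bases are printed, which start at base 7 of the Egfbp2 probe. Capitals mark the bases that differ from Egfbp2, and positions are on mm9.
Egfbp2, chr7:51272283-51272312: atgcctgagtgtcacattgtcccatgttct
Klk1b26 (A_55_P2025006), chr7:51272283-51272312: atgcctgagtgtcacattgtcccatgttct
Klk1b5, chr7:51476017-51476046: atgcctgaAtAtcacattgtcccatgttct
Klk1b16, chr7:51396924-51396953: atgcTtgagtgtcacattgtTccatgttTt
Klk1b9, chr7:51235691-51235720: aCCTctgagtgATacaCtgtcTGCCTttct

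The Egfbp2 probe and the Klk1b26 probe A_55_P2025006 were the same sequence shifted by 5 bases, with all 55 overlapping bases identical, so they cannot be read as probes of separate genes. Without gaps, the Klk1b5 probe matched the Egfbp2 probe at 91.5% of 59 bases, and its longest shared run was 19 bases. The Klk1b16 probe matched it at 89.5% of 57 bases, with a longest run of 15 bases. Klk1b5 and Klk1b16 matched each other at 83.9% of 56 bases. The Klk1b9 probe was the farthest, at 64.3% of 56 bases. How much RNA of one copy the probes of the others bound was not tested.

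The other probes lie further inside their transcripts and are printed whole, in pairs that cover the same part of 2 copies. Capitals mark the bases that differ within the overlap of a pair. Klk1b3 is not among the 10 genes and is shown because its probe is the nearest to that of Klk1b22.
Klk1b26 (A_55_P2001474), chr7:51272156-51272215: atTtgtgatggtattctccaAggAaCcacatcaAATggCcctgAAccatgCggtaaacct
Klk1b24, chr7:51447637-51447696: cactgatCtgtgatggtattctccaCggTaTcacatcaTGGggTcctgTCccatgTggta
Klk1b11, chr7:51255119-51255178: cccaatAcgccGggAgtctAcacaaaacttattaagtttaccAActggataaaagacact
Klk1b27, chr7:51311959-51312018: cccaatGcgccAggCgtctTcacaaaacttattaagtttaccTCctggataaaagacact
Klk1b22, chr7:51371648-51371707: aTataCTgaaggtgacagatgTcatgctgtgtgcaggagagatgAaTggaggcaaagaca
Klk1b3: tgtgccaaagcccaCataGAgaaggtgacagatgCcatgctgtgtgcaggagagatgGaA

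The Klk1b26 probe A_55_P2001474 matched the Klk1b24 probe at 80.0% of 55 bases, with a longest shared run of 17 bases. It shared at most 7 bases in a row with any other family probe. The Klk1b22 probe also shared at most 7 bases in a row with the other family probes, and matched the Klk1b3 probe at 87.2% of 47 bases. These 2 probes therefore read parts of the transcripts that the 3′ end probes do not cover. The Klk1b11 and Klk1b27 probes matched at 90.0% of 60 bases.

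Of the 11 probes, 6 probes of 5 gene names were well above background on all 6 arrays: both Klk1b26 probes and those of Egfbp2, Klk1b5, Klk1b16 and Klk1b22. Of these names, Egfbp2 and Klk1b26 stand for the same place on the chromosome. All 6 were lower in HFD hearts on average, with differences of -1.16 to -0.85 on the log2 scale. The remaining genes gave a different picture: Klk1, Klk1b9, Klk1b11 and Klk1b27 were well above background on no array, and Klk1b24 on 2 arrays.

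The Klk1b26 probe A_55_P2001474 read 0.03, -0.27 and -0.68 in the ND hearts, in the order of their replicate numbers, which is kept throughout. The HFD hearts read -1.95, -1.15 and -1.29. All 3 HFD hearts lay below all 3 ND hearts. The difference was -1.16 (SE 0.27), which puts the HFD mean at 44.8% of the ND level. Its second probe, A_55_P2025006, read 0.59, 0.24 and 0.21 in ND hearts, against -1.11, -0.58 and -0.49 in HFD hearts. The diets did not overlap there either, and the difference was -1.08 (SE 0.20), or 47.5% of the ND level. The 2 probes share no more than 6 bases in a row, and their differences lay within 1 SE of each other.

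The Egfbp2 probe, almost the same sequence as the second Klk1b26 probe, read 0.71, 0.46 and 0.18 in ND hearts and -0.95, -0.43 and -0.39 in HFD hearts. Before scaling, the linear intensities ran from 541 to 801 among ND hearts and from 267 to 414 among HFD hearts. The lowest ND heart was above the highest HFD heart. The difference was -1.04 (SE 0.20), or 48.5% of the ND level. Since its sequence does not set it apart from the second Klk1b26 probe, the pair is not separate evidence of a difference.

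Klk1b5, a copy that lies next to Klk1b4 and Klk1 in the cluster, read -0.48, -0.72 and -0.98 in ND hearts and -1.92, -1.53 and -1.43 in HFD hearts. The diets did not overlap, and the difference was -0.90 (SE 0.18), or 53.6% of the ND level. Klk1b16, gamma-renin, had intensities before scaling of 64.5 to 96.8 in ND hearts and 32.3 to 52.1 in HFD hearts. Its levels ran -2.34, -2.60 and -2.89 in ND hearts, against -4.00, -3.49 and -3.38 in HFD hearts, again without overlap. The difference was -1.01 (SE 0.21), or 49.5% of the ND level.

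Klk1b22, an epidermal growth factor binding protein, read -2.63, -2.75 and -3.21 in ND hearts and -4.08, -3.12 and -3.93 in HFD hearts. Here the diets overlapped, because HFD 2 lay above ND 3. The difference was -0.85 (SE 0.29), or 55.6% of the ND level. Without HFD 2, the array with the out-of-range spike-in slope, the difference was -1.14 (SE 0.20) and the diets did not overlap. This was the largest difference with 1 heart left out. It was -0.66 (SE 0.31) without HFD 1 and -0.74 (SE 0.34) without HFD 3. Whether the spike-in slope had a part in the reading of HFD 2 was not tested.

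**Figure D1:**
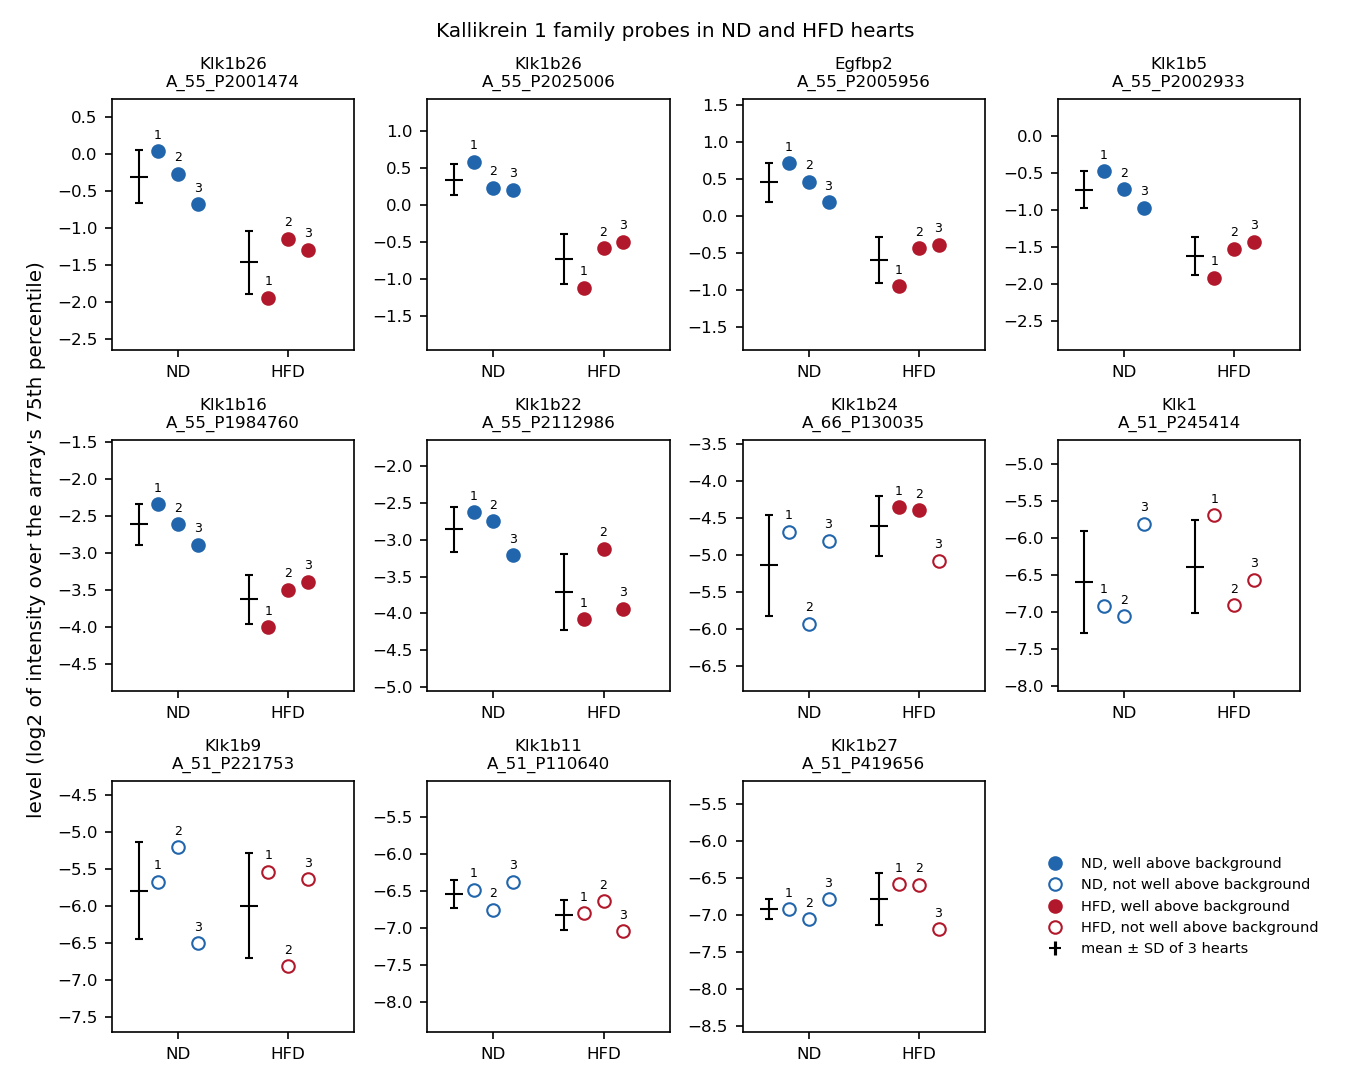
Level of each of the 11 family probes in each heart, as the log2 of intensity over the array's 75th percentile; every panel has its own axis of the same length, numbers name the replicate, open circles were not well above background, and bars give the mean ± SD of 3 hearts. In the panels of Klk1b26, Egfbp2, Klk1b5 and Klk1b16 all HFD hearts lie below all ND hearts, in that of Klk1b22 HFD 2 lies above ND 3, and the panels of Klk1, Klk1b9, Klk1b11 and Klk1b27 hold open circles throughout.

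The 5 genes that were not well above background on all arrays have no usable fold change. Klk1b24 read -4.68, -5.93 and -4.81 in ND hearts and -4.35, -4.39 and -5.08 in HFD hearts. It was well above background in HFD 1 and HFD 2 and in no ND heart. The HFD heart at -5.08 lay below the ND hearts at -4.68 and -4.81. The diets thus overlapped, and no direction is read for Klk1b24. The intensities of Klk1, Klk1b9, Klk1b11 and Klk1b27 lay between 3.62 and 13.1 in the 6 hearts, and the value of Klk1b11 is the mean of 10 spots. For these 4 genes the arrays give only that they were not well above background. The pair of near-identical Klk1b11 and Klk1b27 probes was thus not well above background on either side, nor was the Klk1b9 probe, which differs most from the other 3′ end probes.

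The median difference of the 6 detected probes was -1.03, against -0.01 over all 27587 probes tested. Of the 6, 5 probes had HFD hearts wholly below ND hearts, as did 11.1% of all probes tested, and 4 were at least 2-fold lower, as were 0.471% of all probes. In limma all 6 had an unadjusted p below 0.05, where 6.64% of probes were lower at that limit and 11.9% passed it in either direction. After Benjamini-Hochberg adjustment none of the 6 passed, nor did any with an intensity trend and robust variances, with the methods' t-test or under the other alternatives. Over all probes, 4 (0.0145%) passed. Since the genes were picked on this contrast, neither the limma calls of the 6 probes nor these shares are a test of the family. Nothing is read from them. Ranked by the size of the decrease among all tested probes, the 6 stood between places 79 and 201.

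The 6 probes also followed each other from heart to heart. After each probe was centred on its own mean of 6 hearts, ND 1 lay 0.66 to 0.92 above that mean, ND 2 0.43 to 0.62 and ND 3 0.08 to 0.40. These distances, and the order between the diets, carry the diet difference on which the genes were chosen. HFD 1 was the lowest heart for every one of the 6, at -1.06 to -0.75. For 4 probes, those of Egfbp2, Klk1b5, Klk1b16 and the second of Klk1b26, the order of all 6 hearts was the same: ND 1, ND 2, ND 3, HFD 3, HFD 2 and HFD 1 from high to low. These are the 4 probes at the 3′ end that match one another at 83.9% of their aligned bases or more. The first Klk1b26 probe differed from this order only in that HFD 2 stood above HFD 3. Klk1b22 had HFD 2 between ND 2 and ND 3. The order within a diet is over 3 hearts and has no test.

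**Figure D2:**
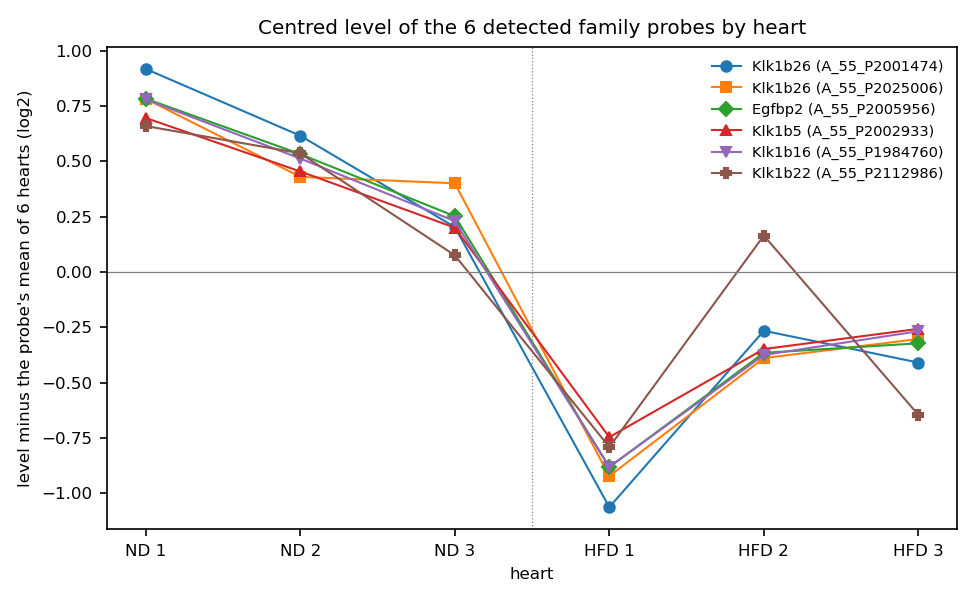
Level of the 6 detected probes in each heart after each probe was centred on its mean of 6 hearts (log2); lines only link the points of one probe, and the hearts have no order. The 6 probes lie close together in each heart, except that Klk1b22 stands at 0.16 in HFD 2, where the other 5 lie between -0.39 and -0.27, and at -0.65 in HFD 3, where they lie between -0.41 and -0.26.

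The slide held HFD 1 and HFD 2 on a row of their own, so each family probe was also read within row 2, where 3 ND hearts and HFD 3 lay side by side. There HFD 3 was below every ND heart for all 6 probes, which were chosen on a contrast that includes these hearts. The count rests on 1 HFD heart and has no share of all probes beside it, so nothing is read from it. The differences from the ND mean were -0.99 and -0.84 for the Klk1b26 probes, -0.84 for Egfbp2, -0.71 for Klk1b5, -0.77 for Klk1b16 and -1.07 for Klk1b22. Row 1 held no ND heart and gives no comparison. With HFD 1, the lowest heart, left out, the median of the 6 probes was -0.85, and without HFD 2 it was -1.13.

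The change to normexp moved Klk1b16 and Klk1b22 most. Normexp is a background model used in place of the software's subtraction, and it adds an offset of 50. With it the difference of Klk1b16 was -0.50 and that of Klk1b22 was -0.38. The background model and the offset were not tested apart. The Egfbp2 probe was at -0.87 and the Klk1b26 probes at -0.95 and -0.94 under the same correction. Over the 14 alternatives computed for each probe, no difference changed sign.

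**Figure D3:**
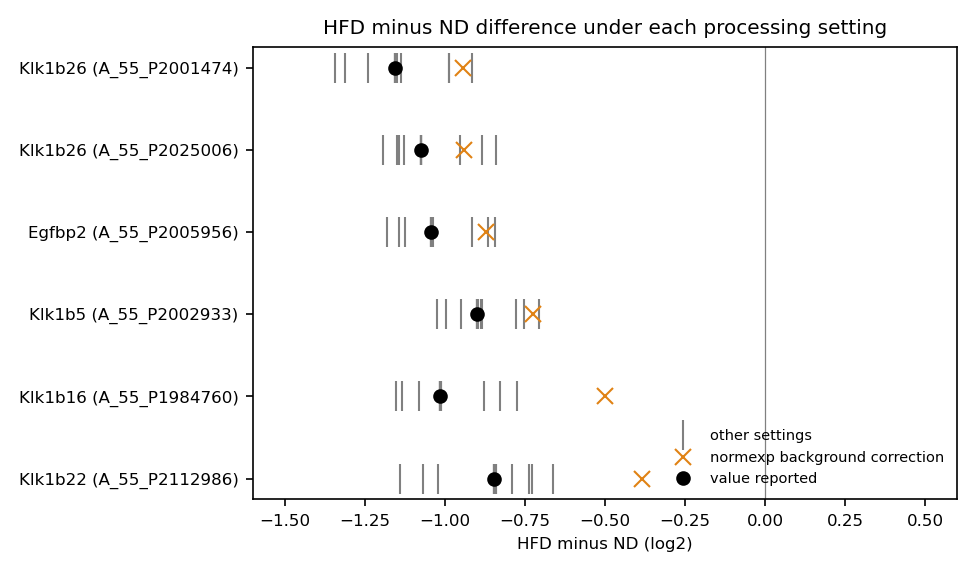
HFD minus ND difference (log2, horizontal axis) of the 6 detected probes as reported (black), with normexp background correction (orange cross) and under the other alternative settings (grey ticks). All values lie below 0, and the crosses of Klk1b16 and Klk1b22, at -0.50 and -0.38, are the nearest to it.

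The family's own promoters are shown because several copies were lower together while others were not well above background. RefSeq starts (GRCm38.p6, plus strand) were found for 9 of the 10 genes, and the 100 bases before the start are printed for the 4 detected genes and, for comparison, for Klk1b11 and Klk1. Capitals mark the letters TTTAAA, a run like the TATA boxes of many genes.
Klk1b26, chr7:44012578-44012677: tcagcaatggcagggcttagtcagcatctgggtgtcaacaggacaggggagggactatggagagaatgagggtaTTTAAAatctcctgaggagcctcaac
Klk1b22, chr7:44112573-44112672: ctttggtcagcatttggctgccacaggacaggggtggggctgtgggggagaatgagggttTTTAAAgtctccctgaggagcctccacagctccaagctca
Klk1b16, chr7:44137190-44137289: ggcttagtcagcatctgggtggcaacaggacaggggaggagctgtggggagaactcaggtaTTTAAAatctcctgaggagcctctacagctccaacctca
Klk1b5, chr7:44216374-44216473: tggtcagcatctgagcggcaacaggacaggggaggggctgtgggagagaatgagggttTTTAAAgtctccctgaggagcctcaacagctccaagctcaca
Klk1b11, chr7:43995777-43995876: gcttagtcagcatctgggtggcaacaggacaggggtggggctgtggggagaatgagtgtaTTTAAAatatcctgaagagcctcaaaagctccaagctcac
Klk1, chr7:44225260-44225359: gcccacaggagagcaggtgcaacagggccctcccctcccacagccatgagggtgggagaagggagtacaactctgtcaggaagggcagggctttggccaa

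TTTAAA, which reads the same on both strands, was in 8 of the 9 windows of 100 bases, all but that of Klk1, with its last base 12 to 37 bases before the start. Of all 32851 RefSeq promoters, 4.39% hold it in this window. The letters AGAACA, searched on both strands as one arm of the site known for steroid receptors such as the androgen receptor, were in 1 of the 9 windows of 250 bases, that of Klk1b24, and in 16.1% of all promoters. Over 250 bases the promoters of the 4 detected genes matched one another at 73.4% to 82.6% of aligned columns. They matched those of the undetected Klk1b9, Klk1b11 and Klk1b27 at 68.0% to 89.7%, and the closest of these pairs was Klk1b16 with Klk1b11. TTTAAA was thus present in detected and undetected copies alike, and a match is not a shown binding site.

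The array also held probes for kallikreins outside the 10 genes: 5 other Klk1b copies and 12 of the kallikreins numbered from Klk4 to Klk15, which are older relatives with other tissues and substrates. Of these 17 genes, 6 were well above background on all 6 arrays, 7 on no array, and none of the 6 tested passed an unadjusted p of 0.05 in limma. Their median difference was 0.04. Klk1b21, the only other Klk1b copy that was detected, read -2.33, -3.05 and -2.32 in ND hearts and -2.61, -2.31 and -2.25 in HFD hearts. The diets overlapped, and the difference was 0.18 (SE 0.22, limma, adjusted p = 0.80). Its probe shared at most 7 bases in a row with any of the 6 detected family probes. Klk8, known from the brain as neuropsin, differed by -0.01 (SE 0.11) and Klk10 by 0.09 (SE 0.22). Klk4, known for the maturation of tooth enamel, differed by 0.09 (SE 0.17), Klk9 by -0.23 (SE 0.18) and Klk12 by -0.08 (SE 0.12).

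The genes that a kallikrein would work with were mostly not measurable in these hearts, or did not pass the test. The list held 29 genes, from kininogens to growth factor receptors: 17 were well above background on all 6 arrays and 12 on none. In limma 2 of the 17 passed an unadjusted p of 0.05, both higher in HFD, against 11.9% of all probes tested, so their share was near the background. None passed after adjustment (0 also with an intensity trend, which gave 3 unadjusted). The median difference of the 17 was 0.04. Neither kininogen gene, Kng1 or Kng2, was well above background on any array, and the same held for Klkb1 and F12 of the plasma branch and for the receptors Bdkrb1 and Bdkrb2. A change in these genes was not detectable at this depth of signal.

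The enzymes that break kinins down were nearly all detected, 7 of 9. Mme, neprilysin, a membrane peptidase that cuts bradykinin and natriuretic peptides, read -2.19, -2.33 and -2.51 in ND hearts and -1.66, -1.50 and -1.66 in HFD hearts. Every HFD heart was above every ND heart, with a difference of 0.73 (SE 0.10, limma, adjusted p = 0.12). Ace, angiotensin-converting enzyme, the main kininase of blood vessels, read 0.78, 0.93 and 0.85 in ND and 0.78, 0.44 and 0.55 in HFD. Its difference was -0.26 (SE 0.11, limma, adjusted p = 0.42), just short of an unadjusted p of 0.05.

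Serping1, the C1 inhibitor that holds plasma kallikrein in check, differed by 0.01 (SE 0.11, limma, adjusted p = 0.985). Nos3, the endothelial nitric oxide synthase that acts below the bradykinin receptor, differed by -0.02 (SE 0.09, limma, adjusted p = 0.94). The growth factor Egf differed by 0.18 (SE 0.23, limma, adjusted p = 0.80). Egfr, the receptor of epidermal growth factor, read 0.61, 0.48 and 0.57 in ND hearts and 0.69, 0.76 and 0.81 in HFD hearts. The diets did not overlap, but the difference was 0.20 (SE 0.07, limma, adjusted p = 0.39) and its unadjusted p stayed under 0.05 in 9 of 16 alternatives, against 16 of 16 for Mme.

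**Figure D4:**
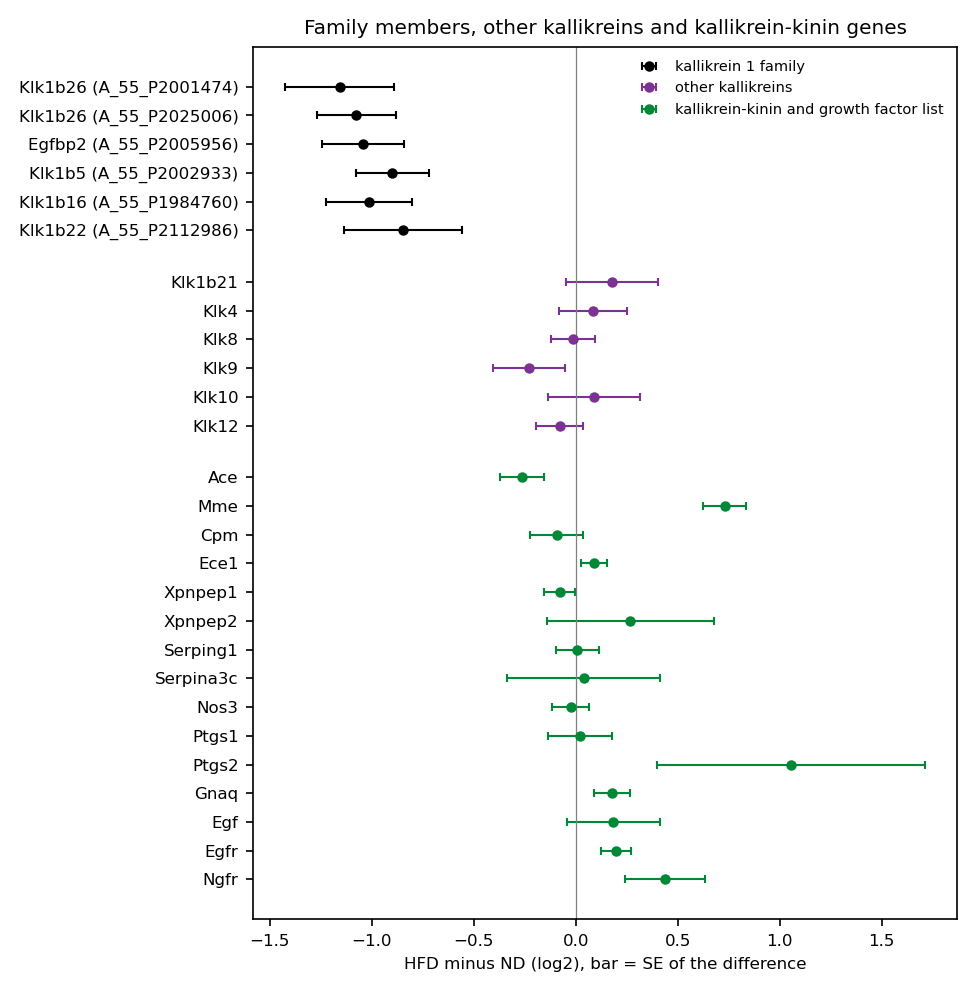
HFD minus ND difference (log2, horizontal axis) with its SE for the 6 detected family probes (black), the 6 other kallikreins tested (purple) and 15 of the tested genes of the kallikrein-kinin and growth factor list (green). The family probes were chosen on this contrast and lie between -1.16 and -0.85, the other kallikreins lie between -0.23 and 0.18, and Mme stands at 0.73.

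By a fixed measure, the 5 genes outside the family whose level was most like the mean centred profile of the 6 probes over the 6 hearts were Ly6c1, Plin3, Abcg2, Farsa and Gda, out of 25918 probes well above background on all arrays. This likeness is a description over 6 hearts that also differ in diet. Ly6c1, a surface antigen of endothelial cells and monocytes, had a Pearson correlation of 0.999 with the family and read 7.54, 7.47 and 7.38 in ND and 7.04, 7.21 and 7.18 in HFD. Its difference, -0.32 (SE 0.08), was smaller than that of any family probe. Plin3, a lipid droplet coat protein, correlated at 0.997 with a difference of -0.49 (SE 0.12). Abcg2, an efflux transporter, correlated at 0.996 with a difference of -0.34 (SE 0.08). Farsa, a subunit of phenylalanyl-tRNA synthetase, correlated at 0.995 although its difference was -0.08 (SE 0.06), and Gda, guanine deaminase, at 0.995 with a difference of -0.44 (SE 0.10).

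Markers of other cell types were read beside the family, since salivary gland and pancreas are rich in kallikreins. Of 8 salivary markers on the array, 3 were well above background on all 6 arrays and 5 on no array: Smr2, Smr3a, Psp, Dcpp1 and Dcpp2. The mean level of the 8 lay between -4.05 and -3.79 in ND and between -3.75 and -3.42 in HFD. That mean includes the 5 markers at background, so no direction is read from it. Of the 3 detected markers, 2 were higher in HFD hearts and 1 was lower. Of 9 pancreatic markers, Cela2a, Cela3b, Prss2, Try4 and Pnlip were well above background on no array. Ctrb1 and Amy2a5 were well above background on all 6 arrays, Cela1 on 5 and Cpa1 on 3. Of the 3 tested, Amy2a5 differed by 0.80 with every HFD heart above every ND heart, Cela1 by 0.51 and Ctrb1 by -0.06. The list's mean lay between -5.20 and -5.06 in ND and between -5.27 and -4.93 in HFD.

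Tested genes of the skeletal muscle and erythroid lists were lower in HFD hearts, as the family was. For skeletal muscle, 4 of 7 genes were tested (Acta1, Tnnt3, Tnni2 and Ckm) and all 4 were lower. The differences were -0.92 for Acta1, -0.44 for Tnnt3, -0.41 for Tnni2 and -0.27 for Ckm. The list means were -1.25 to -0.57 in ND and -1.69 to -1.48 in HFD. They are taken over all 7 genes, so values near background enter them and the size of their difference is not read. Of the 7 genes Mylpf was well above background on no array, and Myh4 and Myh1 were well above background on 1 array each. Whether the samples differed in their content of skeletal muscle was not tested. For erythroid cells, 5 of 6 genes were tested and all 5 were lower, with list means of 1.65 to 2.73 in ND and 1.08 to 1.46 in HFD. Mast cell markers went the other way: 5 of 6 were tested, all higher, with means of -3.55 to -3.26 in ND and -3.07 to -2.89 in HFD, and Ms4a2 was well above background on no array. Their part in the family's difference was not tested.

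Atrial markers, all 6 of which were well above background somewhere, varied most between hearts. Their mean ran from 2.35 to 4.37 in ND and was 5.34, 0.02 and 3.94 in HFD 1, HFD 2 and HFD 3. White adipocyte markers, 4 of 5 tested with Lep well above background on no array, varied alike, from -2.81 to -1.97 in ND and from -4.61 to -1.41 in HFD. HFD 1 and HFD 2 stood at opposite ends of both lists. The family probes lay below the ND mean in both of these hearts and were lowest in HFD 1. Both lists rose from ND 1 to ND 2 to ND 3 and were highest in HFD 1, whereas the family fell in that order. This opposite order did not extend to HFD 2, where both lists were lowest. The family's mean centred level was -0.26 in HFD 2 and -0.37 in HFD 3, below that of every ND heart. A relation between these lists and the family was not tested.

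**Figure D5:**
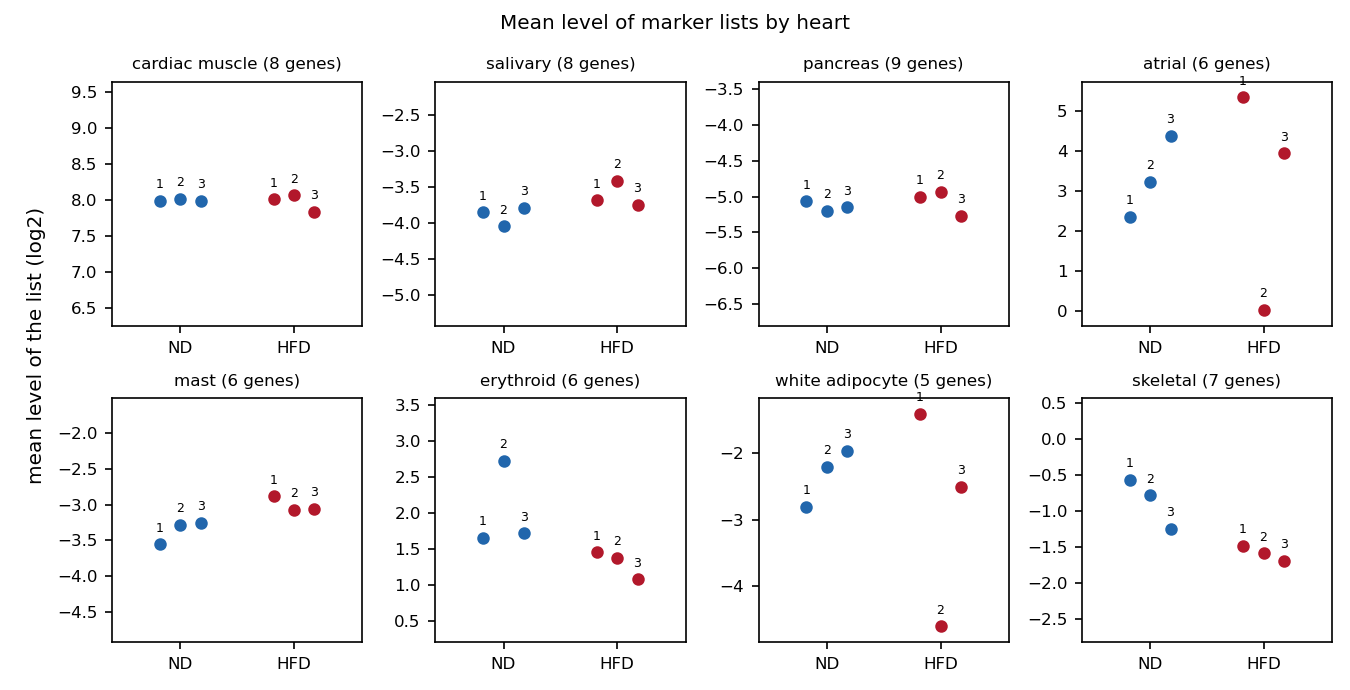
Mean level (log2) of 8 marker lists in each heart, over all genes of the list on the array; numbers name the replicate and the axes differ between panels. Cardiac muscle is level across the hearts, skeletal muscle and erythroid means lie lower in HFD without overlap, mast cell means lie higher, and atrial and white adipocyte means are lowest in HFD 2.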

How the data were processed

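RNA of 6 hearts was measured on Agilent mouse gene expression arrays (1 colour, Cy3). The authors' deposited intensities came from Agilent Feature Extraction 10.7.1.1, which subtracted background within each array and did not normalize between arrays. The authors' deposited log2 table of these arrays, whose making is not given in the sources used here, followed a quantile normalization (all column medians 4.557) and served as an alternative.

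Control spots and spots with an outlier flag were left out, spots of a probe were averaged, and log2 intensities were set relative to the 75th percentile of all spots other than controls (intensity 453 to 544). The 27587 probes rated well above background in all hearts of at least 1 diet were fitted in limma 3.58.1 (R 4.3.3, data.table version 1.17.8, jsonlite 2.0.0; two-sided, Benjamini-Hochberg). In gene lists each gene was represented by its tested probe of highest mean level. The fit was tested on simulated data. Sequences came from the scanner files and RefSeq promoters (GRCm38.p6), and probe overlaps were scored without gaps over at least 30 bases. Plots used matplotlib 3.10.9 under Python 3.11.15.

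The family, the gene lists and the markers were chosen with earlier results of these data known. Named are all family probes, list genes with an unadjusted p below 0.05, the main pathway genes whatever their values, each other kallikrein tested, and the 5 genes most like the family. The separate results of 2 list genes are not reported here. The precision of each mean is limited by 3 hearts per diet. The alternatives were quantile normalization, normexp, 2 filters on dim probes, robust variances with an intensity trend, the methods' t-test, the authors' log2 values, the replicate number and the slide row as blocks, outlier spots kept, and each heart left out.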

Additional observations from a re-analysis of the deposited data

How the results depend on the processing

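The median difference of the 6 detected family probes kept its sign under all 14 alternatives computed for it, from -1.15 without ND 3 to -0.80 with normexp. With the slide row as a block it was -0.84, and with the replicate block -1.03. The number of probes past an adjusted p of 0.05, 4 in limma, was 40 with normexp, 81 with an intensity trend and robust variances, 8 with the methods' t-test (3143 before adjustment), 2 with the authors' log2 table, 0 without a filter on dim probes, 0 with the slide row and 0 with the replicate number as a block. It was 0 to 5 when each heart was left out. None of these calls was a family probe.

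Of the kinin and growth factor list, 2 genes passed an unadjusted p of 0.05 in limma, 1 without a filter (Mme) and 1 to 4 with a heart left out, with 1 without ND 2 and 4 without HFD 1 (Mme, Egfr, Gnaq and, lower, Ace). Without HFD 3, Ptgs2 and Mme were among the genes that passed. Of the other kallikreins, 0 to 1 passed: Klk10 without HFD 1, Klk1b8 without HFD 2 and Klk9, lower, without HFD 3. The cause of these changes was not tested. Deviations of same-numbered hearts from their diet's mean correlated at -0.154, 0.147 and 0.19, so the numbers were not treated as pairs, and the replicate block gave 3020 unadjusted calls against 3275. Intensities of Klk1b16 and Klk1b22 near the background limit how well their differences are known.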
